A study of Mus musculus with 6 samples.

Results

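Lipid droplets are stores of triglyceride and sterol ester that bud from the endoplasmic reticulum and are covered by a coat of proteins. Perilipins form much of that coat and set how far lipases can reach the stored lipid, CIDE proteins make droplets grow by passing lipid between droplets in contact, and Hilpda inhibits the main triglyceride lipase. In the kidney, proximal tubule cells burn fatty acids for energy, and fat that is taken up but not burned is kept in droplets. The 8 genes followed here were taken by name from the deposited table: Plin1, Plin2 and Cidec, with Plin3, Plin4, Plin5, Cidea and Hilpda added as relatives or partners. Of these 8, 6 are among the 7340 genes of the table. Plin4, a perilipin of adipose tissue and muscle, and Cidea, a CIDE protein best known from brown fat, were not analysed here.

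RNA was sequenced from 6 kidney samples of wild-type (WT) mice. Of these, 3 had ischaemia-reperfusion injury (IRI), in which blood flow is stopped and restored, together with MK-8617, a small molecule that inhibits the HIF prolyl hydroxylases. The other 3 had IRI alone. These groups are called treated kidneys and IRI kidneys below. The titles name MK8617 for all 3 treated samples, whereas the treatment entries of replicates 2 and 3 read MK8618 and MK8619, and the titles were followed. The labels give no age, sex, dose or time after injury, although the column names carry a 1d tag. No uninjured kidney was analysed here, so each difference is between injured kidneys with and without the compound.

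Counted reads came to 16835541 to 17577794 per library in treated kidneys, against 18620621 to 19508497 in IRI kidneys. The table holds 56.7% to 57.4% of the MK-8617 reads and 51.7% to 53.0% of the IRI reads. The authors' p was below 0.05 for each gene in it, so a listed gene was already selected for a difference. Kidney identity was read from listed genes only: Umod, the uromodulin gene of the thick ascending limb, had 42948 ± 11592 normalised reads in treated kidneys, against 31300 ± 8346 in IRI kidneys. The defining proximal tubule markers Slc34a1, Lrp2 and Cubn were not analysed here, and 10 of the 24 proximal tubule markers followed here were.

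The starts of the genes are shown because HIF prolyl hydroxylases control HIF, a transcription factor whose recognition core is ACGTG or GCGTG. The windows run from 250 bases before to 50 bases after the annotated transcription start, are from RefSeq on GRCm38.p6, and read 5′ to 3′ along the gene. Of the 6 listed genes, 6 had at least 1 window. Capitals mark each match to a core on either strand (CACGT or CACGC is a core on the other strand).
Plin2, chr4:86670010-86670309, minus strand: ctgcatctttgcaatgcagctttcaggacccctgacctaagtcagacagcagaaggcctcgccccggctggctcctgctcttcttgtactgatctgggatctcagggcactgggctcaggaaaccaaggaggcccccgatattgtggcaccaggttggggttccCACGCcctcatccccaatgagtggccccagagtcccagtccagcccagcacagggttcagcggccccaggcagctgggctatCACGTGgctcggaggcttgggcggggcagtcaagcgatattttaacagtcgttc
Hilpda, downstream start, chr6:29272376-29272675, plus strand: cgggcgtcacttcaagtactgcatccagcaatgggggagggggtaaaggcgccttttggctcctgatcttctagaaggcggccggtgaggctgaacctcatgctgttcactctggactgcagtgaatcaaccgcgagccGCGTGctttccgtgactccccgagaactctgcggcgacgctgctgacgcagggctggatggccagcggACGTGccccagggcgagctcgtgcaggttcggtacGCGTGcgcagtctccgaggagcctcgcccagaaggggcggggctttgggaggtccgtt
Cidec, downstream start, chr6:113434715-113435014, minus strand: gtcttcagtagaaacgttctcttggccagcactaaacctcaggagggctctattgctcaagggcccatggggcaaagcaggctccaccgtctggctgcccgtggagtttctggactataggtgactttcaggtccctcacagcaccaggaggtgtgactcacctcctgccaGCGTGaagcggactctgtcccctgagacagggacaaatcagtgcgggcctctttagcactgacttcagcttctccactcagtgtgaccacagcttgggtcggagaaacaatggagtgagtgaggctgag
Plin1, chr7:79732727-79733026, minus strand: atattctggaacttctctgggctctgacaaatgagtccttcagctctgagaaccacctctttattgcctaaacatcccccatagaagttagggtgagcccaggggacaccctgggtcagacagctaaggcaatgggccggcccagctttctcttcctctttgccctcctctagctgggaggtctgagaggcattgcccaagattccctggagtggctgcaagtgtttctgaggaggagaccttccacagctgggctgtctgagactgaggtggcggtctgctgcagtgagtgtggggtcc

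In the Plin2 window the 2 strands of one palindrome gave overlapping ACGTG matches beginning 4 and 3 bases before the start, and a GCGTG match lay at -86 on the opposite strand. The downstream Hilpda start had ACGTG at -43 and GCGTG at -111 and at -8, and the first of these GCGTG sites lay at 28 of the upstream start, whose window overlaps. Cidec had GCGTG at -79 of the downstream start and at 10 of the upstream start. Plin5 had GCGTG at -54 and 21 of its first start, the second of these sites again at -230 of its second start. The Plin1 and Plin3 windows held neither core. Across all 32851 RefSeq windows of the same length, ACGTG occurred in 19.6%, GCGTG in 32.4% and either of them in 43.8%. A second motif, the nuclear receptor element AGGTCA that PPAR proteins read in pairs, was found in the windows of Plin2 (at -218, opposite strand) and Plin5 (at -170 of the first start and 14 of the second), and in 16.3% of all windows. The direct repeat of this element with 1 base between was in 0.0396% of all windows and in none of the windows of these genes. At so low a share its absence from a few windows says nothing about these genes, and sequence outside the windows was not searched. These are matches of letters, and binding was not measured.

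**Figure D1:**
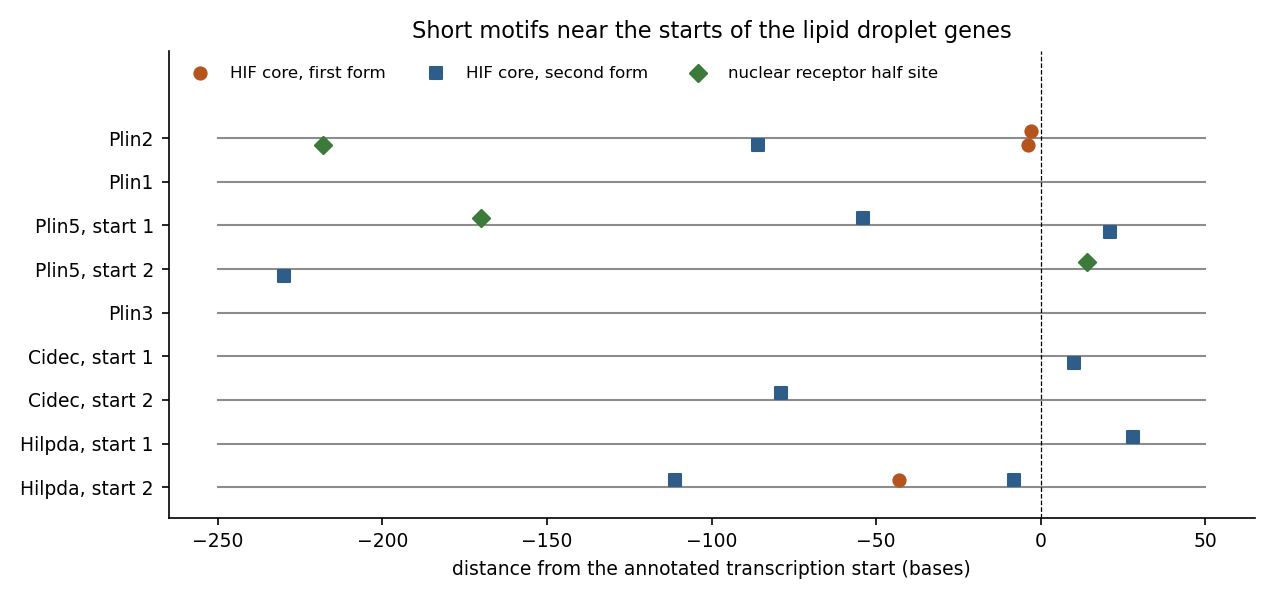
Positions of short motifs in the windows of the 6 listed genes, as distance in bases from the annotated transcription start (dashed line). Circles are ACGTG, squares GCGTG and diamonds AGGTCA, drawn above the line for the gene's strand and below it for the opposite strand. The windows of Plin1 and Plin3 are empty.

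Plin2 is the coat perilipin of most cells outside fat tissue, and it was by far the most abundant of these transcripts. It lies at 86648386 to 86670060 on chromosome 4 (GRCm38, minus strand, ENSMUSG00000028494). Its normalised read counts, that is reads divided by a size factor per library, were 90045, 86119 and 77825 in MK-8617 replicates 1, 2 and 3, against 21062, 11522 and 22776 in IRI replicates 1, 2 and 3. The treated libraries lay close together and far above all IRI libraries, of which replicate 2 was the lowest. Plin2 was higher by 2.26 ± 0.23 on the log2 scale (SE; 95% interval 1.73 to 2.78), with an adjusted p of 0.000342 in limma. Without IRI replicate 2 the fold change was 1.95. All fold changes here are IRI with MK-8617 over IRI, on the log2(value + 1) scale, and p-values are adjusted by the Benjamini-Hochberg method over the 18811 genes that the authors tested. Nothing in the labels says that replicates are separate animals, so these p-values measure the spread between samples, which may be technical.

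Per length, Plin2 had 1424, 1358 and 1238 FPKM in treated kidneys, against 339, 185 and 363 FPKM in IRI kidneys. That placed it at place 11 by FPKM among the 7340 listed genes in each MK-8617 library, and at places 83, 194 and 83 in the IRI libraries. Plin2 took 0.471% ± 0.0331 of all counted reads in treated kidneys, against 0.104% ± 0.0340 in IRI kidneys (SD, n = 3 each). The spread relative to the mean was 7.37% among treated libraries and 32.9% among IRI libraries. Of the 6961 genes tested, 100 had a larger rise than Plin2. In whole tissue, fewer cells of a type and less RNA per cell cannot be told apart.

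Plin1, the perilipin of adipocyte droplets, where it holds lipases back until hormones call for fat, was close to absent with IRI alone. The gene is at 79720218 to 79732903 on chromosome 7 (minus strand, ENSMUSG00000030546). It had 39, 33 and 37 reads in MK-8617 replicates 1, 2 and 3, against 0, 1 and 1 reads in the IRI replicates. All treated libraries were well above a floor of 3 reads and all IRI libraries were below it. With so few IRI reads, Plin1 also passed the separate filter on low counts through the treated group alone. The ratio of summed reads, corrected for library scaling, was 61.1, with an exact 95% counting interval of 16.5 to 511. A gene that passes in this way had to differ, so its fitted fold change is given as a description only. It was 4.65 ± 0.49 (SE) in limma, where its size depends on the added constant. It was 2.94 with a pseudocount of 5 and 0.53 on log2(FPKM + 1). In DESeq2, which was run without such a constant, it was 5.93. Per length, Plin1 stayed low even in treated kidneys, at 0.477, 0.419 and 0.473 FPKM against 0, 0.0110 and 0.0116 FPKM with IRI alone. Plin1 reads were thus few beside those of Plin2 in every library.

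Plin5, the perilipin of oxidative tissues that links droplets to mitochondria, lies at 56111601 to 56117596 on chromosome 17 (minus strand, ENSMUSG00000011305). It had 269, 263 and 201 normalised reads in MK-8617 replicates 1, 2 and 3, against 59.6, 77.4 and 55.6 in the IRI replicates. The lowest treated library was well above the highest IRI library. Plin5 rose by 1.91 ± 0.21 (SE; 95% interval 1.43 to 2.40) on the log2 scale, with an adjusted p of 0.000495 in limma. IRI replicate 2, the lowest for Plin2, was the highest IRI library for Plin5.

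Plin3, a perilipin that moves from the cytosol onto newly formed droplets, was lower. It lies at 56277476 to 56292873 on chromosome 17 (minus strand, ENSMUSG00000024197). It had 1093, 1111 and 1069 normalised reads in MK-8617 replicates 1, 2 and 3, against 1675, 1447 and 1711 in the IRI replicates. The treated libraries were nearly equal and all below the lowest IRI library. The log2 fold change was -0.56 ± 0.10 (SE; 95% interval -0.78 to -0.33), with an adjusted p of 0.00379 in limma. This is a modest change among the listed genes, since 64.3% of tested genes had a larger absolute fold change.

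Cidec (also called Fsp27), which enlarges droplets by moving lipid from small to large ones, is on chromosome 6 at 113424634 to 113435760 (minus strand, ENSMUSG00000030278). Its values were 130, 192 and 161 normalised reads in MK-8617 replicates 1, 2 and 3, against 39.8, 38.3 and 48.9 in the IRI replicates. The groups were clearly apart, and treated replicates varied more than IRI replicates. Cidec rose by 1.89 ± 0.24 (SE; 95% interval 1.36 to 2.43) on the log2 scale, with an adjusted p of 0.000797 in limma. The means, 161 ± 31.0 in treated kidneys, against 42.3 ± 5.76 in IRI kidneys (SD, n = 3 each), gave a ratio of 3.80.

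Hilpda, a hypoxia-inducible protein that binds and inhibits the lipase Pnpla2, is on the plus strand of chromosome 6 at 29272488 to 29275446 (ENSMUSG00000043421). It had 417, 394 and 489 normalised reads in MK-8617 replicates 1, 2 and 3, against 111, 99.3 and 240 in the IRI replicates. IRI replicate 3 was the highest of the IRI replicates, with a highest-to-lowest ratio of 2.41, yet it stayed below every treated library. Hilpda rose by 1.64 ± 0.30 (SE; 95% interval 0.95 to 2.32) on the log2 scale, with an adjusted p of 0.00445 in limma. Without IRI replicate 3 its fold change was 2.03.

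In all, 5 of the 6 listed members rose and 1 fell, while 74.3% of the 6961 tested genes were called, 35.7% as higher and 38.7% as lower. Of all tested genes 2482 were higher, but 1488 with treated replicate 1 left out and 1618 with treated replicate 3 left out. The 5 include Plin1, whose difference the filter made certain. The median log2 fold change was 1.90 over the 6 members, 1.89 over those other than Plin1 and -0.31 over all tested genes. Values of the 2 groups did not overlap for any of the 6, but that held for 92.5% of tested genes and sets nothing apart. In the authors' deposited table the log2 fold changes were 2.20 for Plin2, 5.93 for Plin1, 1.93 for Plin5, -0.56 for Plin3, 1.93 for Cidec and 1.53 for Hilpda, with adjusted p-values of 6.85e-23 for Plin2 to 0.000122 for Plin3. Neither the direction nor the call of any member other than Plin1 changed in the 15 other settings tried. Plin1 kept both as well, but the filter had made its difference certain. The settings refit the same reads of genes already selected on p, so they give no independent support.

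**Figure D2:**
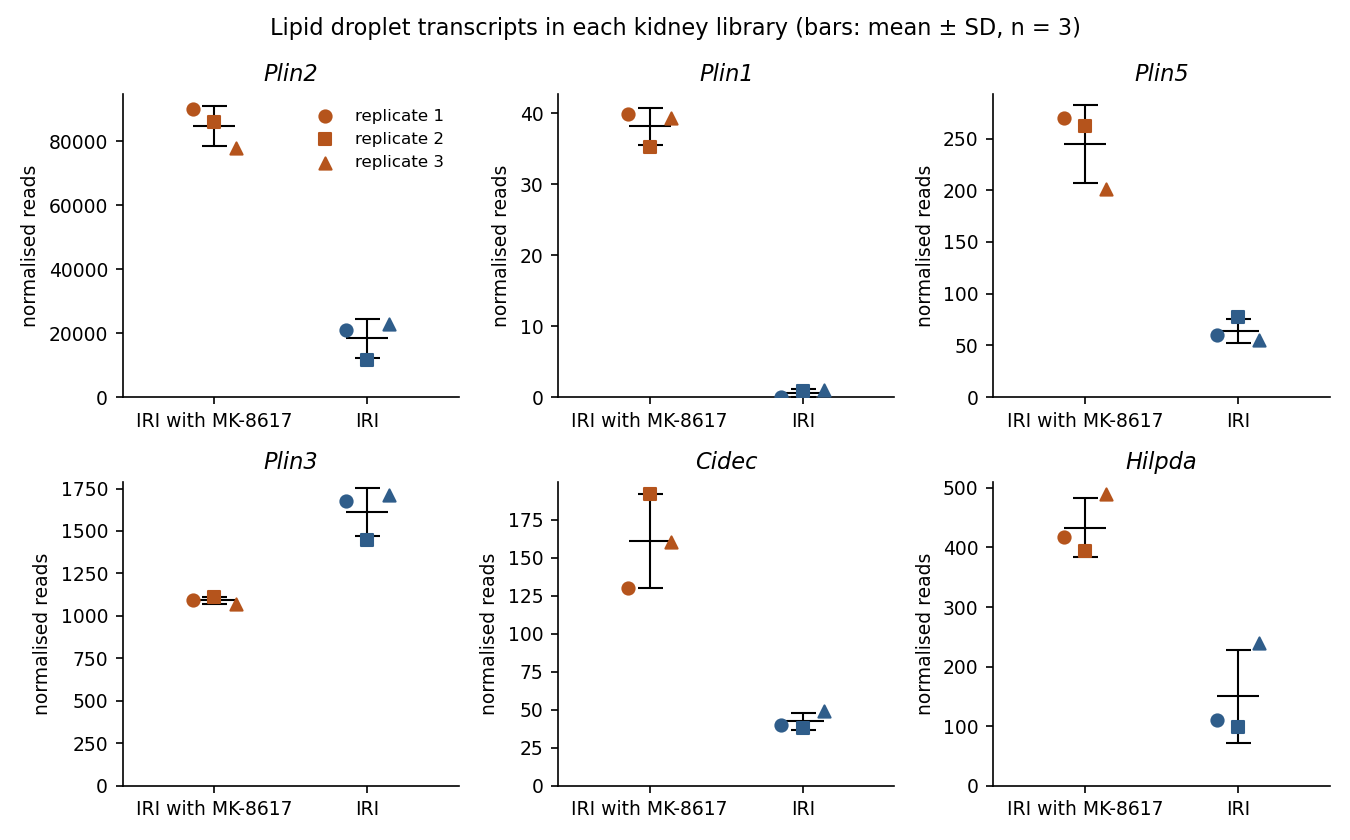
Normalised reads of the 6 listed lipid droplet genes in each library, IRI with MK-8617 in orange and IRI in blue, with a symbol per replicate number and the mean ± SD (n = 3). Each vertical axis starts at 0 and has its own scale. For 5 genes all treated libraries are above all IRI libraries, while Plin3 is the reverse.

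**Figure D3:**
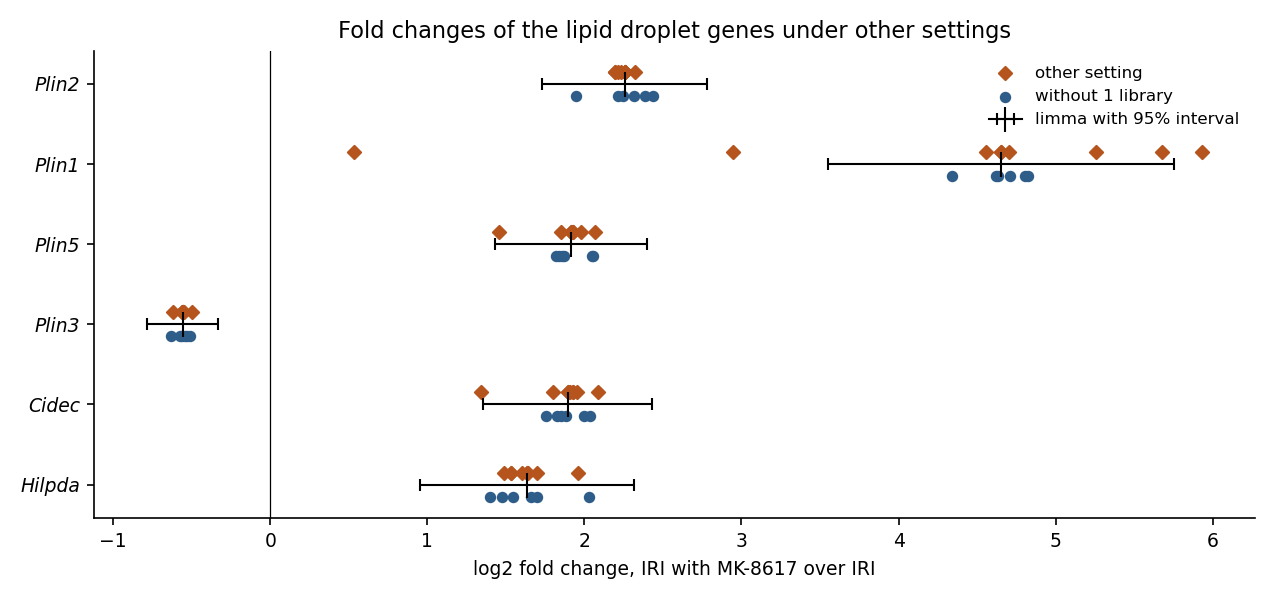
Log2 fold changes of the 6 genes, IRI with MK-8617 over IRI. Vertical ticks with bars give the limma estimate with its 95% interval, diamonds the other settings and circles the fits without 1 library. Plin1 alone spreads widely, between 0.53 and 5.93, and no point crosses 0.

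Set beside each other per length, the members kept a similar order in both groups, with 1 exchange. With MK-8617 the mean FPKM was 1340 ± 94.2 for Plin2, 21.8 ± 2.61 for Hilpda, 16.0 ± 0.241 for Plin3, 6.50 ± 0.980 for Plin5, 4.82 ± 0.919 for Cidec and 0.456 ± 0.0321 for Plin1 (SD, n = 3). With IRI alone it was 296 ± 96.9 for Plin2, 23.9 ± 2.11 for Plin3, 7.64 ± 3.94 for Hilpda, 1.73 ± 0.314 for Plin5, 1.28 ± 0.170 for Cidec and 0.00753 ± 0.00652 for Plin1. Hilpda and Plin3 thus stood in opposite order in the groups, and their libraries did not overlap in either. The ranges of Plin5 and Cidec overlapped with MK-8617, where the highest Cidec library (5.73 FPKM) exceeded the lowest Plin5 library (5.38 FPKM). Within each treated library, however, Plin5 was above Cidec. The values were 7.17 against 3.89, 6.97 against 5.73 and 5.38 against 4.83 FPKM in MK-8617 replicates 1, 2 and 3. With IRI alone the highest Cidec library (1.48 FPKM) lay just under the lowest Plin5 library (1.49 FPKM).

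Among the 4 listed perilipins, Plin2 made up 98.3% ± 0.0449 of the summed FPKM in treated kidneys, against 91.5% ± 2.47 in IRI kidneys. Plin3 made up 1.18% ± 0.0721 in treated kidneys, against 7.89% ± 2.12 in IRI kidneys. Plin5 made up 0.476% ± 0.0422 in treated kidneys, against 0.609% ± 0.342 in IRI kidneys, and Plin1 0.0336% against 0.00275%. The sum itself was 1363 ± 95.3 FPKM in treated kidneys, against 321 ± 98.7 FPKM in IRI kidneys (SD, n = 3 each).

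Ratios within a library do not depend on how libraries are scaled. The FPKM ratio of Plin2 to Plin3 was 88.8, 83.6 and 78.5 in the MK-8617 replicates, against 13.6, 8.58 and 14.3 in the IRI replicates. The groups were far apart, by a log2 difference of 2.82, and the exact two-sided permutation p was 0.1, the smallest that 3 against 3 samples allow (adjusted over 4 ratios, 0.4). The ratio of Plin2 to Plin5 was 199, 195 and 230 in treated kidneys, against 210, 88.4 and 243 in IRI kidneys. These overlapped (log2 difference 0.33, exact permutation p = 0.9), and the difference was -0.125, 0.50 or 0.61 with IRI replicate 2, 1 or 3 left out. The ratio of Plin2 to Cidec was 366, 237 and 256 in treated kidneys, against 280, 159 and 246 in IRI kidneys, which overlapped too (log2 difference 0.34, exact permutation p = 0.5). This difference was 0.0980 with IRI replicate 2 left out and 0.149 with MK-8617 replicate 1 left out. On log2(FPKM + 1) these differences were 0.78 for Plin5 and 0.89 for Cidec, and the exact permutation p was 0.1 for each, again the smallest possible, so the overlap depends on that added constant. The ratio of Plin2 to Hilpda was 67.8, 68.7 and 49.97 in treated kidneys, against 59.7, 36.4 and 29.8 in IRI kidneys (log2 difference 0.61, exact permutation p = 0.2). IRI replicate 1 overlapped with the treated range. With IRI replicate 3 left out, that difference was 0.40. A p of this size in a design of 3 against 3 does not show that Plin2 and these genes changed alike, and ratios among Plin5, Cidec and Hilpda were not compared.

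**Figure D4:**
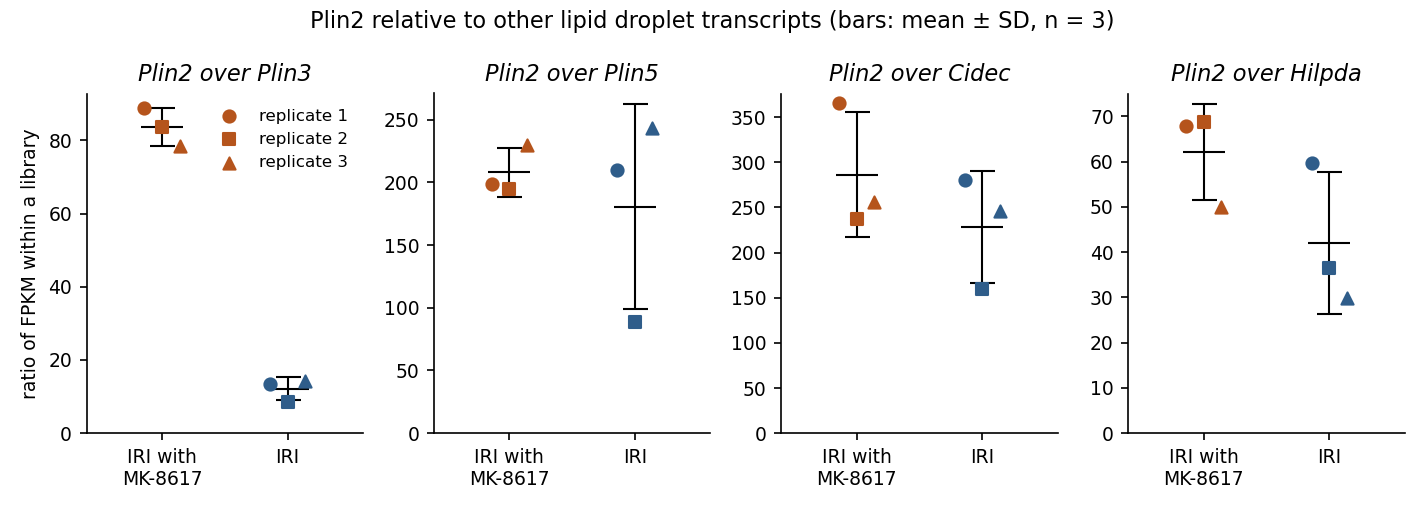
FPKM of Plin2 divided by that of Plin3, Plin5, Cidec or Hilpda in the same library, with the mean ± SD (n = 3) and IRI with MK-8617 left of IRI. The ratio to Plin3 is 78.5 to 88.8 in treated libraries and 8.58 to 14.3 in IRI libraries, and the other ratios overlap.

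Within a group some members moved together and others did not. IRI replicate 2 was 0.62 below the IRI mean for Plin2 on the log2 scale. Hilpda, Plin3 and Cidec were below it there too, at -0.47, -0.15 and -0.13. Plin5 was 0.28 above it, on 85 reads against 63 and 58 in IRI replicates 1 and 3. IRI replicate 3 was 0.79 above the IRI mean for Hilpda and 0.37 above it for Plin2. Cidec and Plin3 were above it there too, at 0.21 and 0.09, while Plin5 was at -0.19. Plin1, with 0 to 1 reads per IRI library, is left aside here. Among treated kidneys, replicate 1 was 0.29 below the group mean for Cidec and 0.09 above it for Plin2.

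The counts of list genes below are to be read beside the shares over all tested genes, 35.7% higher and 38.7% lower. Genes that break down stored triglyceride were mostly higher. Of 14 genes on this list 9 were tested, and 7 rose and 0 fell, with a median log2 fold change of 0.61. At an unadjusted limma p below 0.05 there were also 0 lower genes, as in edgeR and DESeq2. Pnpla2, the lipase that takes the first fatty acid off triglyceride, rose by 1.46 ± 0.15 (SE; limma adjusted p = 0.000291), with 6226 ± 684 normalised reads in treated kidneys, against 2284 ± 417 in IRI kidneys (SD, n = 3 each). Ces1d, a carboxylesterase that hydrolyses triglyceride, rose by 1.90 ± 0.24. Lipe, the hormone-sensitive lipase of the second step, rose by 0.85 ± 0.14, and Mgll, the monoglyceride lipase of the last step, by 0.77 ± 0.15. Abhd5, the coactivator of Pnpla2, rose by 0.37. Lpl, the lipase of the vessel wall, was at 0.56 with an adjusted p of 0.0757 in limma. Hilpda, the inhibitor, and Pnpla2, its target, were both higher in the same kidneys.

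Of 26 genes that make triglyceride or sterol ester 14 were tested, and 11 rose and 3 fell (35.7% and 38.7% of all tested genes), with a median of 0.76. Acsl1, which activates fatty acids to acyl-CoA, rose by 1.39 ± 0.13 (SE), with 4647 ± 127 normalised reads in treated kidneys, against 1788 ± 318 in IRI kidneys (SD, n = 3 each). Gpam and Gpat3, which start glycerolipid synthesis, rose by 0.98 ± 0.16 and 0.81 ± 0.14, and the phosphatidate phosphatases Lpin1 and Lpin2 by 1.55 ± 0.24 and 0.57 ± 0.10. Dgat2 and Dgat1, which add the last fatty acid, rose by 0.97 and 0.40. Acsl5, another acyl-CoA synthetase, fell by 0.65, Agpat1, of the second acylation step, fell by 0.52, and Mogat2, which builds on monoglyceride, fell by 1.46. The count of higher genes was 6 without MK-8617 replicate 3 and 7 without MK-8617 replicate 1, MK-8617 replicate 2 or IRI replicate 1.

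Genes for making the droplet itself were called about as often in each direction as tested genes in general (35.7% higher, 38.7% lower). Of 27 genes for droplet assembly and surface proteins 11 were tested, and 4 rose and 4 fell, with a median of -0.33. Fitm2, which helps droplets bud from the endoplasmic reticulum, rose by 1.11 ± 0.11 (SE; limma adjusted p = 0.000241), with 1134 ± 98.7 normalised reads in treated kidneys, against 525 ± 24.3 in IRI kidneys (SD, n = 3 each). Rdh16, a retinol dehydrogenase found on droplets, rose by 1.51 ± 0.28. Vps13d, a lipid transfer protein, rose by 0.63 ± 0.11, but was at 0.16 with the trend on gene length removed. Bscl2, the seipin of droplet formation sites, fell by 0.46. The 4 falls were weak, with adjusted limma p-values of 0.0223 to 0.0458: the count was 1 with TMM scaling, and 0 or 1 when any library but IRI replicate 3 was left out.

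Of 22 genes for fatty acid uptake and transport 9 were tested, and 4 rose and 2 fell, with a median of 0.48. The share that rose is near the 35.7% of all tested genes. Vldlr, the receptor that takes up very low density lipoprotein, rose by 0.86 ± 0.11 (SE), and the fatty acid transport protein Slc27a1 by 0.69 ± 0.11. The lysophospholipid transporter Mfsd2a, the third to rise, had 381 ± 108 normalised reads in treated kidneys, against 132 ± 19.3 in IRI kidneys (SD, n = 3 each), and the transport protein Slc27a4 rose by 0.48. The acyl-CoA-binding protein Dbi fell by 0.88, and the fatty acid-binding protein Fabp3 fell by 0.80. The drop of Fabp3 was -0.43 and no longer called with the length trend removed.

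Of 20 genes of fatty acid synthesis 11 were tested, and 4 rose and 3 fell, with a median of -0.31, equal to that of all tested genes, and the share that rose is near the general 35.7%. Acly, which makes cytosolic acetyl-CoA, rose by 0.59 ± 0.10 (SE), and Srebf1 and Mlxipl, transcription factors of fat synthesis, by 0.44 and 0.70. Fasn, the fatty acid synthase, was at -0.36, Fads1, a desaturase, at -0.38 and Elovl1, an elongase, at -0.31. The count of lower genes was 0 with TMM scaling, 0 without any one MK-8617 library or IRI replicate 1, and 1 without IRI replicate 2. The count of higher genes was 1 without MK-8617 replicate 1 and 2 without MK-8617 replicate 2 or IRI replicate 1.

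Plin2, Plin5, Cidec and Angptl4 are known targets of PPAR alpha, the fatty acid receptor that drives fat burning. Of 36 genes on a list of this pathway 27 were tested, and 21 rose and 2 fell, beside 35.7% and 38.7% of all tested genes, with a median of 0.91. The peroxisomal enzyme Ehhadh rose by 2.57 ± 0.14 (SE), with 24390 ± 1581 normalised reads in treated kidneys, against 4138 ± 810.0 in IRI kidneys (SD, n = 3 each). The fatty acid hydroxylases Cyp4a14 and Cyp4a10 rose by 2.70 ± 0.19 and 1.69 ± 0.15, and the thioesterase Acot2 by 1.94 ± 0.17. Ppara, the receptor gene, rose by 1.19 ± 0.18. Fbp2, a gluconeogenic phosphatase, fell by 1.05, and Tmem120a fell by 0.36. The count of lower genes was 1 with TMM scaling, and 1 without treated replicate 2 or 3 or IRI replicate 1 or 2.

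Hilpda, Vldlr, Angptl4 and Lpin1 are known HIF targets that act on lipid. Of 19 genes on a list of HIF targets and HIF subunits, which holds Hilpda itself, 18 were tested, and 16 rose and 1 fell, beside the general 35.7% and 38.7%, with a median of 1.14. The mitophagy receptor Bnip3 rose by 2.96 ± 0.14 (SE), Egln3, a prolyl hydroxylase that HIF induces, by 2.24 ± 0.21, and Ldha, the lactate dehydrogenase, by 1.14 ± 0.10. The gene that fell was Fabp3, described above, and without IRI replicate 3 the list had 2 falls. Angptl4, an inhibitor of lipoprotein lipase that is on both lists, rose by 0.91 ± 0.13, with 6117 ± 76.7 normalised reads in treated kidneys, against 3289 ± 497 in IRI kidneys (SD, n = 3 each).

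**Figure D5:**
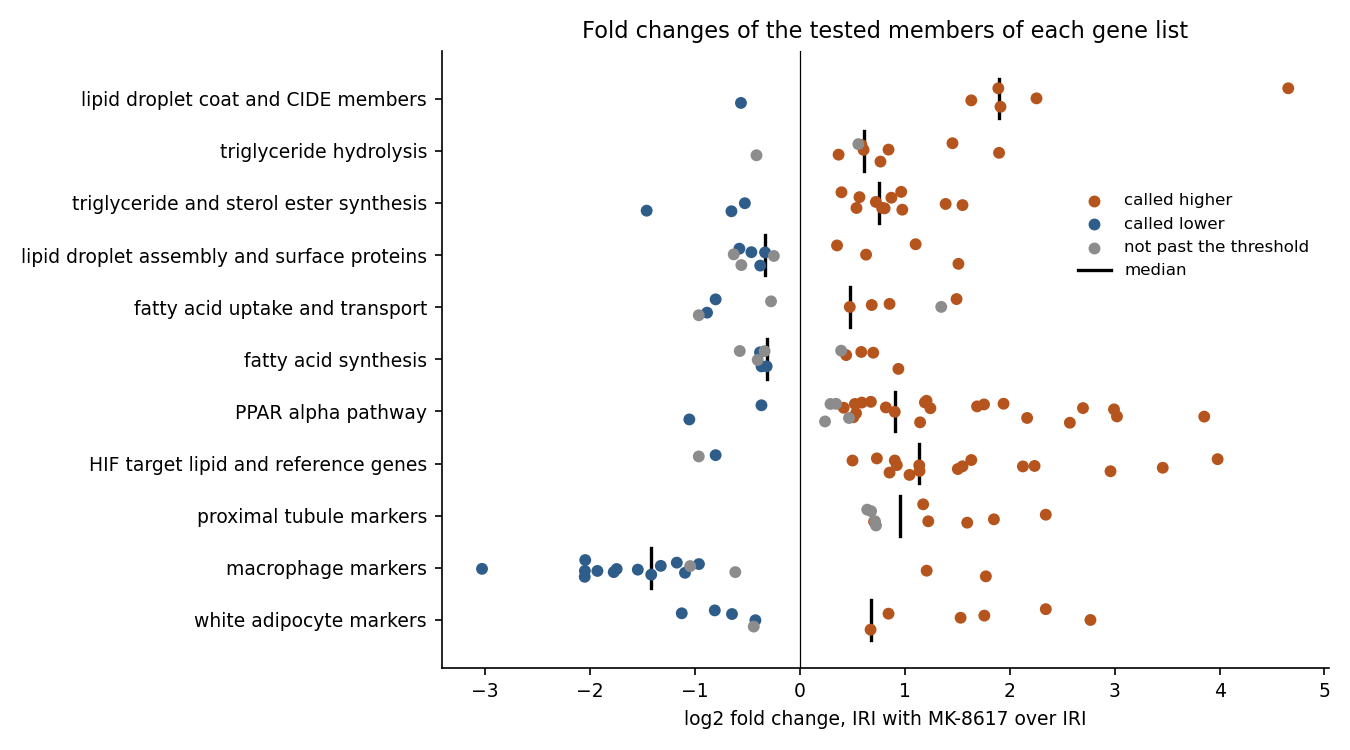
Log2 fold changes, IRI with MK-8617 over IRI, of the tested genes of 11 lists. Each point is a gene, orange if called higher, blue if called lower and grey if not past the threshold, and the black bar is the list's median. The lipid droplet members, Plin1 included, have the highest median, 1.90, and the macrophage markers the lowest, -1.41. Members and lists were chosen with earlier results of these data known, so this order is a description only.

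Cells other than tubule cells can hold droplets, so their markers are given beside the members. Plin1 and Cidec are abundant in white fat, and all 5 defining markers of that tissue, Adipoq, Lep, Cfd, Retn and Fabp4, were not analysed here. Of 25 white adipocyte markers in all 11 were tested, and 6 rose and 4 fell (general shares 35.7% and 38.7%), with a median of 0.68. Their summed normalised reads were 64889 to 76216 in treated kidneys, against 7763 to 24852 in IRI kidneys. Pck1 and Cyp2e1, which the proximal tubule also expresses, made up most of that sum in every library but IRI replicate 3, where they had 2065 and 1433 of the 7763 reads. Lipe and Nnat rose, at 0.85 and 1.53, while Sncg and Slc2a4 fell, at -1.12 and -0.81. Leaving out treated replicate 1 or 3 left 2 higher and 2 lower, and leaving out treated replicate 2 left 2 lower. Of 15 brown adipocyte markers 2 were tested, Pank1 at 1.28 and Cox7a1 at -1.07, and their sum was 2385 to 2655 in treated kidneys, against 735 to 1284 in IRI kidneys. The defining brown markers Ucp1 and Cox8b were not analysed here.

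Macrophages, which fill with droplets in injured tissue, had lower markers. Of 20 markers 17 were tested, and 2 rose and 13 fell (general shares 35.7% and 38.7%), with a median of -1.41. Lyz2, C1qa and Adgre1, the 3 of 4 defining markers that were listed, fell, with log2 fold changes of -3.02, -1.32 and -1.41. The summed normalised reads were 4797 to 5695 in treated kidneys, against 5086 to 8390 in IRI kidneys, which overlapped. That overlap came from Cd14, a receptor for bacterial lipopolysaccharide, which rose by 1.77. Cd14 held 2434, 2566 and 2295 of these reads in MK-8617 replicates 1, 2 and 3, against 649, 752 and 730 in the IRI replicates. The rest of the sum was lower in each treated library than in any IRI library. Of 24 proximal tubule markers 10 were tested, and 6 rose and 0 fell (general shares as above), with a median of 0.95. Their summed normalised reads were 93104 to 106077 in treated kidneys, against 31081 to 62191 in IRI kidneys, lowest in IRI replicate 3. Slc22a8, an organic anion transporter, rose by 1.85 ± 0.15 (SE), and Miox, the inositol oxygenase, by 1.18 ± 0.25. Their count of higher genes was 10 in DESeq2 and 10 at an unadjusted limma p below 0.05, with 0 lower in both. Of 22 markers of other kidney cells 10 were tested, and 3 rose and 4 fell. Their sums were 35398 to 56011 in treated kidneys, against 35352 to 50313 in IRI kidneys. Umod, which was not called, made up most of that sum in every library. It had 29584, 48960 and 50299 reads in MK-8617 replicates 1, 2 and 3, against 35706, 21673 and 36519 in the IRI replicates. Without Umod the sum was lower in each treated library than in any IRI library. Of 7 erythrocyte markers 1 was tested, Slc4a1, at -1.72. The part of these cell types in the values of the lipid droplet genes was not tested.

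The genes whose profile over the 6 libraries was nearest to each of the 3 main members were found by the root mean square difference of log2 values, each centred on its own mean, among genes of at least 100 normalised reads. For Plin2 these were mt-Ty at 0.182, Acot2 at 0.226, Ndrg1 at 0.247, Glrx at 0.265 and Egf at 0.273. Egf, the growth factor gene of the distal nephron, had 1684 ± 511 normalised reads in treated kidneys, against 357 ± 114 in IRI kidneys. For Cidec they were Mir5125 at 0.166, Chd9 at 0.182, Vmp1 at 0.188, Cd14 at 0.196 and Pfkl at 0.214. For Plin1 even the nearest were farther off, among them Ankrd37 at 0.623, Adm2 at 0.713, Mt2 at 0.842 and Car9 at 0.846. Plin1 had 0, 1 and 1 reads in IRI replicates 1, 2 and 3, so its distances depend on the added constant. Only 4 tested genes rose more than Plin1, so large distances could be foreseen and mark no trait of it. The distances of all 3 members rest on the difference between 2 groups of 3 and describe these libraries only. No stranded counting is stated, so reads of genes that overlap another gene cannot be told apart, whereas none of the 6 listed lipid droplet genes overlaps another annotated gene.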

How the data were processed

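Total RNA was taken with TRIzol and sequenced from NEBNext Ultra libraries, per the labels' protocols. The tools were DESeq2 1.20.0, featureCounts 1.5.0-p3, HISAT2 2.0.5, fastp and CASAVA 1.8, per the submitters' processing notes, which also name the human build GRCh38 although the deposited identifiers are mouse ones. The authors' signal values are gene counts divided by a size factor per library, and dividing by what 1 read is worth gave whole reads for 100% of values (tolerance 0.001). The raw count deposited for IRI replicate 3 equalled these reads for 7340 of 7340 genes. FPKM as deposited is scaled to gene length and library total, and those totals were recovered with GENCODE M21 exon lengths (GRCm38), which fitted 94.8% to 94.9% of genes. The authors also deposited log2 fold changes and p-values.

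The unit called for limma 3.58.1 (trend and robust, R 4.3.3) on log2(value + 1) of the deposited signal. The filter filterByExpr of edgeR 4.0.16 kept 6961 genes and removed 379. Adjustment was by Benjamini-Hochberg over 18811 genes, the number the deposited adjusted p-values imply, with a threshold of 0.05, and 89 listed genes have a deposited adjusted p of 1. Other settings used edgeR and DESeq2 1.42.0 on the recovered reads, among others. Scripts were tested on simulated data. Chi-square divided by its degrees of freedom was 17.3 to 47.6 between replicates, so none was a duplicate. A floor of 3 reads is 0.154 to 0.178 CPM, and such floors and counting intervals cover counting error only.

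The members and gene lists were chosen with earlier results of these data known. Of each list the 6 tested genes with the smallest adjusted p could be named, with the markers that cell types needed, and Abhd5, Dgat1, Dgat2, Agpat1, Mogat2, Angptl4, Ppara, Fbp2, Tmem120a, Lpl, Pck1, Umod and Adgre1 were named after their values were seen. The design text speaks of tumors where the labels say kidney, and the labels were followed. A few genes that the naming rule takes are not reported here.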

Additional observations from a re-analysis of the deposited data

How the results depend on the processing

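The lipid droplet genes other than Plin1 kept their direction and call in the 15 other settings. Their largest adjusted p was 0.0350 (Hilpda, limma without MK-8617 replicate 3). Plin1 kept both as well, but passed the filter through the treated group alone. All 6 genes were already selected on p in these libraries, so a kept call is no independent support. Without 1 library the log2 fold change ranged over 1.95 to 2.44 for Plin2, 4.34 to 4.82 for Plin1, 1.82 to 2.05 for Plin5, -0.63 to -0.51 for Plin3, 1.76 to 2.04 for Cidec and 1.40 to 2.03 for Hilpda. Without 1 library 1488 to 2446 genes were called higher (2482 with all) and 1924 to 2698 lower. Without 1 library the lists gave 6 to 10 higher for triglyceride synthesis, 0 to 4 lower for droplet assembly, 1 to 5 higher and 0 to 3 lower for fatty acid synthesis, 1 to 2 lower for PPAR alpha and for HIF, and 2 to 6 higher and 2 to 5 lower for white adipocytes. The log2 difference of the Plin2 to Plin5 ratio ran from -0.125 to 0.61, reversed without IRI replicate 2.

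With the length trend removed droplet assembly had 2 higher, fatty acid synthesis 2 higher, PPAR alpha 1 lower and HIF 0 lower. TMM scaling, which moved the median of all genes to -0.25, gave 1, 0 and 1 lower for droplet assembly, fatty acid synthesis and PPAR alpha. PPAR alpha had 1 lower on log2(FPKM + 1), and DESeq2 gave 7 lower for droplet assembly and 10 higher for proximal tubule. The causes were not tested. Of 81 named genes with a test, 63 kept direction and call in every setting, and the fold changes of the others kept their sign.

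With the replicate number as a block 2510 genes were higher, 2747 lower, 5 and 1 of the members, and PPAR alpha had 1 lower. Same-numbered libraries correlated at 0.021, 0.116 and 0.115, so the numbers are not shown to pair samples, although every library correlated best with its own number. Depth limits the fold change of Plin1, with 0 to 1 reads per IRI library. A table selected on p says nothing of unlisted genes.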
